A study of Homo sapiens with 6 samples.

Results

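Mitosis genes encode the kinases, motors and chromosome proteins with which a cell divides its copied genome. The group described here comprises 57 listed genes of mitotic kinases and cyclins, kinesins, the kinetochore, the spindle checkpoint, condensin, cohesin and cytokinesis. They were found by symbol in a table of 31164 genes, each on 1 row, and were compared between cells with and without a knockdown of HMGA1. The cells, labelled HT29, a long-established line from a human colorectal tumour, gave 6 RNA libraries. 3 libraries carried a control hairpin (shNC, genotype given as WT) and 3 carried a hairpin against HMGA1 (shHMGA1, genotype given as HMGA1 knockdown), with no treatment in either group. HMGA1 is an architectural protein of chromatin with AT-hooks that contact DNA, and the series asks how its stable knockdown changes gene expression. The labels and protocols used here give neither the number of hairpins nor whether the cells were a clone or a pool. Nothing in the labels says that replicates came from separate cultures, so the spread behind each p-value is that among these libraries and may be technical.

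As background, cyclin B bound to CDK1 drives entry into mitosis, and CDC25 phosphatases switch it on by removing inhibitory phosphates. Polo-like and Aurora kinases build the spindle, kinesins move along its microtubules, and the NDC80 complex ties the kinetochore to it. The checkpoint holds CDC20 and the anaphase-promoting complex until every chromosome is attached. Separase then cuts cohesin, condensin keeps chromosomes compact, and PRC1, anillin and ECT2 help to divide the cell. Many of these genes are transcribed late in the cell cycle through promoters with a cell cycle genes homology region (CHR), bound by MuvB complexes that work with MYBL2 and FOXM1, and with CCAAT boxes bound by NF-Y. In colorectal cancer cells in culture their RNA is known as a marker of proliferation.

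Values are FPKM (fragments scaled by gene length and library size) as deposited, and fold changes are differences of log2(FPKM + 1), shHMGA1 minus shNC. A gene was called when its adjusted p from limma was under 0.05 (Benjamini-Hochberg over the 14304 genes whose mean reached 1 FPKM), and every adjusted p below is from this test unless the authors' table is named. HMGA1 (chromosome 6, 34236873 to 34246231, hg38) stood at 785, 810 and 854 FPKM in shNC and at 465, 565 and 508 in shHMGA1 replicates 1 to 3. It fell to 62.8% of the control level (-0.67 on the log2 scale, SE 0.08, adjusted p = 0.0018), with an exact two-sided permutation p of 0.1, the smallest that 3 against 3 allows. Library totals ran from 807156 to 838067 FPKM, and the lowest values put depth at 0.69 to 1 times that of shNC replicate 1, with shHMGA1 replicate 1 the shallowest. Mitochondrially encoded genes took 11.4% to 13.5% of the total in shNC, 12.5% in shHMGA1 replicate 1 and 8.94% and 8.5% in replicates 2 and 3. Of 10 colon epithelial markers, 7 reached a mean of 1 FPKM (summed level 3480 to 3830 FPKM in shNC, 3130 to 3320 in shHMGA1). Most of the sum was KRT8, KRT18 and KRT19, and KRT20 lay near 1 FPKM (0.84 to 1.14). Limma tested only the 7 that reached 1 FPKM and called 1 higher and 2 lower, against 16.1% and 12.3% of all genes tested. VIL1, CEACAM5 and LGALS4 lay between 0 and 0.21 FPKM in every library. HT29 is usually described as expressing these 3 genes, so the markers go against the label there, and the identity of the line was not tested. Endothelial and blood cell markers summed to at most 0.7 FPKM in any library. Fibroblast markers summed to 11.1 to 11.8 FPKM in shNC and 7.56 to 12.2 in shHMGA1, most of it COL1A1.

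The promoters of these genes are shown first, because a larger share of them held CHR and CCAAT letters, which the choice of genes did not use, than of all promoters. RefSeq promoters (GRCh38.p14, from 250 bases before to 50 bases after the gene start) matched 50 of the 57 symbols. For each symbol the first listed promoter was used, while the share of all promoters was taken without removing repeats of a symbol. The motifs searched, on both strands, were the CHR (either TTTGAA, or else TTCGAA), the CCAAT box, and an E2F-type site (TTCGCGC in one form, TTGGCGC in another, with TTCCCGC and also TTGCCGC counted), and matches of different motifs may overlap. A CHR match was found in 35 of the 50 promoters (70.0%), against 16.4% of all 35116 promoters in the same table. A CCAAT match was found in 33 (66.0%, against 34.6%), both together in 25 (50%, against 6.38%) and an E2F-type match in 15 (30.0%, against 13.0%). Below are the 120 bases before the gene start of 7 promoters, 5′ to 3′ on the gene's strand, in capitals where a CHR or CCAAT match lies (a CCAAT box on the other strand reads ATTGG). CDCA8, KIF22, PLK1 and CDC25A were called higher in the knockdown, and CCNB2, CDC20 and CENPA were not called.
CDCA8 (chr1:37692396-37692515, + strand): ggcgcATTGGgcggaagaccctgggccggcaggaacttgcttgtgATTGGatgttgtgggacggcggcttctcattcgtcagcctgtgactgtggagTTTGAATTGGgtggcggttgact
KIF22 (chr16:29790631-29790750, + strand): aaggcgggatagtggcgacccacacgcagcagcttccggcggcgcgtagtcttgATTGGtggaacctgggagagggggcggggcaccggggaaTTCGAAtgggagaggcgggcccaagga
PLK1 (chr16:23678769-23678888, + strand): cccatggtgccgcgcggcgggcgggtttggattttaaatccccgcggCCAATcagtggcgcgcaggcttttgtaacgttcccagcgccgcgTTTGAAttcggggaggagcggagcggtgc
CDC25A (chr3:48188418-48188537, - strand): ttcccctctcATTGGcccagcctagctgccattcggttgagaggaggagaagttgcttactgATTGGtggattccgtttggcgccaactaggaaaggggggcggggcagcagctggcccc
CCNB2 (chr15:59105026-59105145, + strand): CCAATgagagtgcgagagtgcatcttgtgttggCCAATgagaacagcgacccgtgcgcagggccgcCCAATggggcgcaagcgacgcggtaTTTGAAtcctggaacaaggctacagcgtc
CDC20 (chr1:43358861-43358980, + strand): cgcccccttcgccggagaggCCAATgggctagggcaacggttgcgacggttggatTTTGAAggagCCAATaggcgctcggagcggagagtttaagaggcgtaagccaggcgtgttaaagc
CENPA (chr2:26785936-26786055, + strand): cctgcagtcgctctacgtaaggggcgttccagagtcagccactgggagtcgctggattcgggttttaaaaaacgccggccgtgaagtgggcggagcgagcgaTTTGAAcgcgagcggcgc

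In the promoters shown, CDCA8, KIF22, PLK1, CCNB2 and CENPA hold a CHR match close to the gene start, and CDC20 holds one farther upstream between CCAAT matches. In CDCA8 the CHR match and an ATTGG share 1 base. CDC25A holds CCAAT matches on the reverse strand, and its window had no CHR match. Its E2F-type matches are left in lower case. All the promoters shown except CDC25A hold a CHR match in the printed bases, a larger share than among the 50 promoters. In some of the 50 the only CHR match lay after the gene start, as in PLK4 (39) and CENPF (41). In others it lay more than 120 bases before the start, as in CDK1 (-161) and SMC3 (-151). Over the 50 promoters, the 43 CHR matches had their first base at a median of -26 bases from the gene start and the 65 CCAAT matches at a median of -74.

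**Figure D1:**
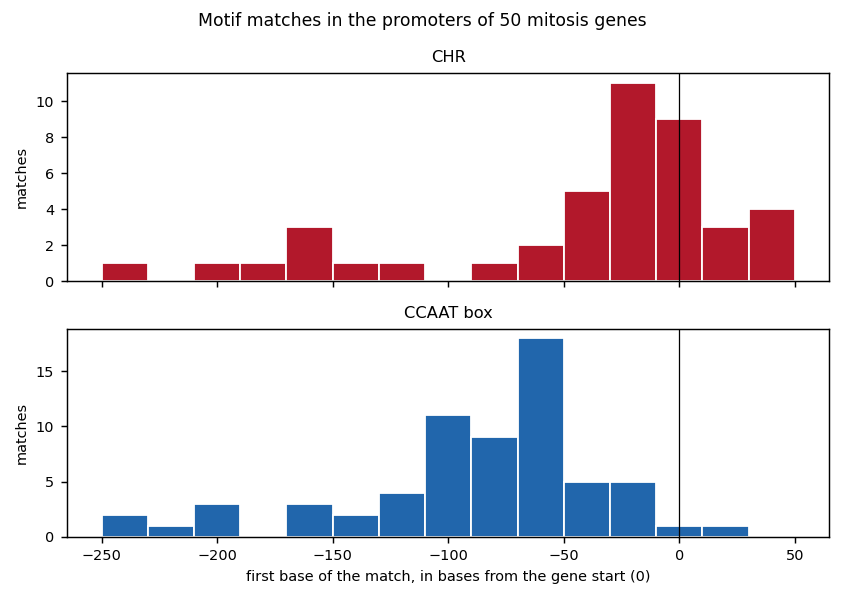
Positions of CHR (upper panel) and CCAAT box (lower panel) matches in the promoters of 50 mitosis genes, as counts of matches in bins along the distance in bases from the gene start at 0. CHR matches gather nearer to the start (median -26) than CCAAT matches (median -74).

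In shHMGA1 cells 27 of the 57 genes rose and 0 fell, where 16.1% of all genes tested were called higher and 12.3% lower. At an unadjusted p under 0.05, limma had 1 gene lower (ECT2), and the authors' deposited table, described further on, called 0 lower. All 57 passed the filter on low values, with values from 5.68 to 299 FPKM. The changes were small: the median log2 fold change was 0.25, against 0.02 over all genes tested, and single genes ran from -0.17 (ECT2) to 0.64 (MYBL2). In 31 genes every shHMGA1 library lay above every shNC library and in 0 every one lay below, against 25.4% and 20.5% of all genes tested. In bulk RNA, more cells in mitosis and more of these RNAs per cell cannot be told apart.

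**Figure D2:**
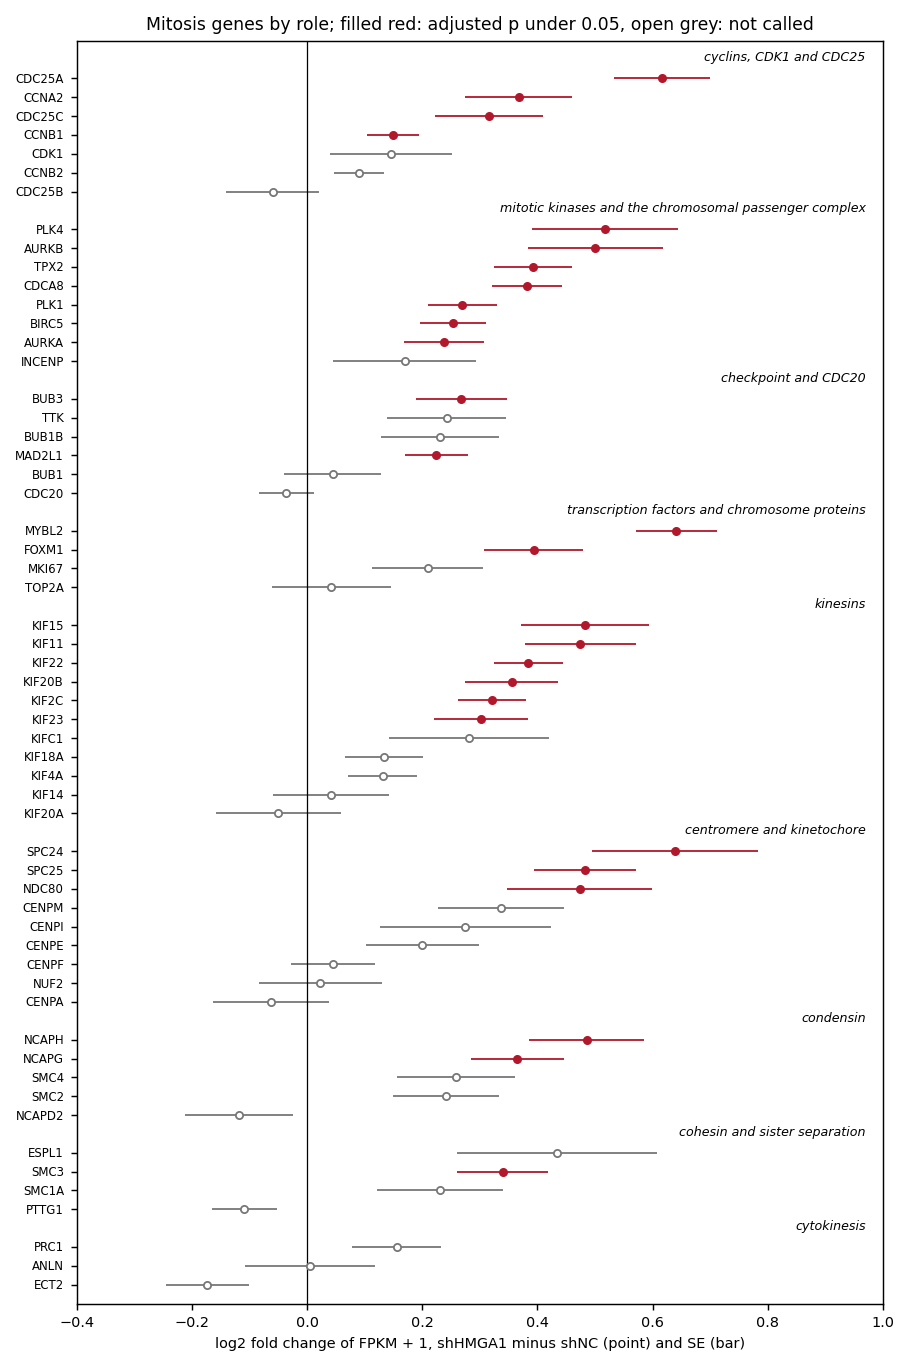
Log2 fold change of FPKM + 1 (shHMGA1 minus shNC, points) with its standard error (bars) for the 57 genes in 9 role lists, with genes called at adjusted p under 0.05 in filled red and the others in open grey. Points lie between -0.17 and 0.64, and all 27 filled points lie to the right of 0.

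The size of the difference varied among the 3 knockdown libraries, and it did so for most of the genes at once. Set against the shNC mean, the median of the 57 genes was 0.42 in shHMGA1 replicate 1, 0.10 in replicate 2 and 0.28 in replicate 3 on the log2 scale. The same medians over all genes tested were 0.02, 0.03 and 0.03. Replicate 1 was the highest of its group in 46 of the 57 genes (80.7%, against 35.2% of all genes tested) and replicate 2 the lowest in 49 (86%, against 32.8%). The HMGA1 level had the opposite order, lowest in replicate 1 (465 FPKM) and highest in replicate 2 (565 FPKM). Depth was lowest in replicate 1 (0.69) and highest in replicate 2 (0.81), and the mitochondrial share was highest in replicate 1. The part of these values in the result was not tested. Leaving out 1 library at a time moved the number of genes that rose. It was 12 when shNC replicate 1 or shHMGA1 replicate 3 was left out, 13 and 15 when shNC replicate 2 or 3 was, 21 when shHMGA1 replicate 1 was and 34 when shHMGA1 replicate 2 was. Over all genes 2307 were called higher with every library, and 1138, 1173, 1279, 1579, 2626 and 1749 in those fits, in the same order. With shHMGA1 replicate 1 left out, ECT2, KIF20A and NCAPD2 were called lower, as were 1973 of all 14319 genes tested. With shHMGA1 replicate 2 left out, 9 more genes were called higher: CDK1 (log2 fold change 0.27, adjusted p = 0.0262), MKI67 (0.30, adjusted p = 0.0499), BUB1B, TTK, CENPI, CENPM, SMC4, ESPL1 and PRC1. 9 genes were called with any library left out: CDC25A, TPX2, CDCA8, MYBL2, KIF2C, KIF11, KIF20B, KIF22 and SPC25. Of the other 18, NCAPH lost its call in 1 of the 6 fits, PLK1, FOXM1 and NCAPG in 2, AURKB, BIRC5, KIF15, SPC24 and SMC3 in 3, and CCNA2, PLK4, MAD2L1 and NDC80 in 4. CDC25C, AURKA, BUB3 and KIF23 lost it in 5 and CCNB1 in all 6.

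**Figure D3:**
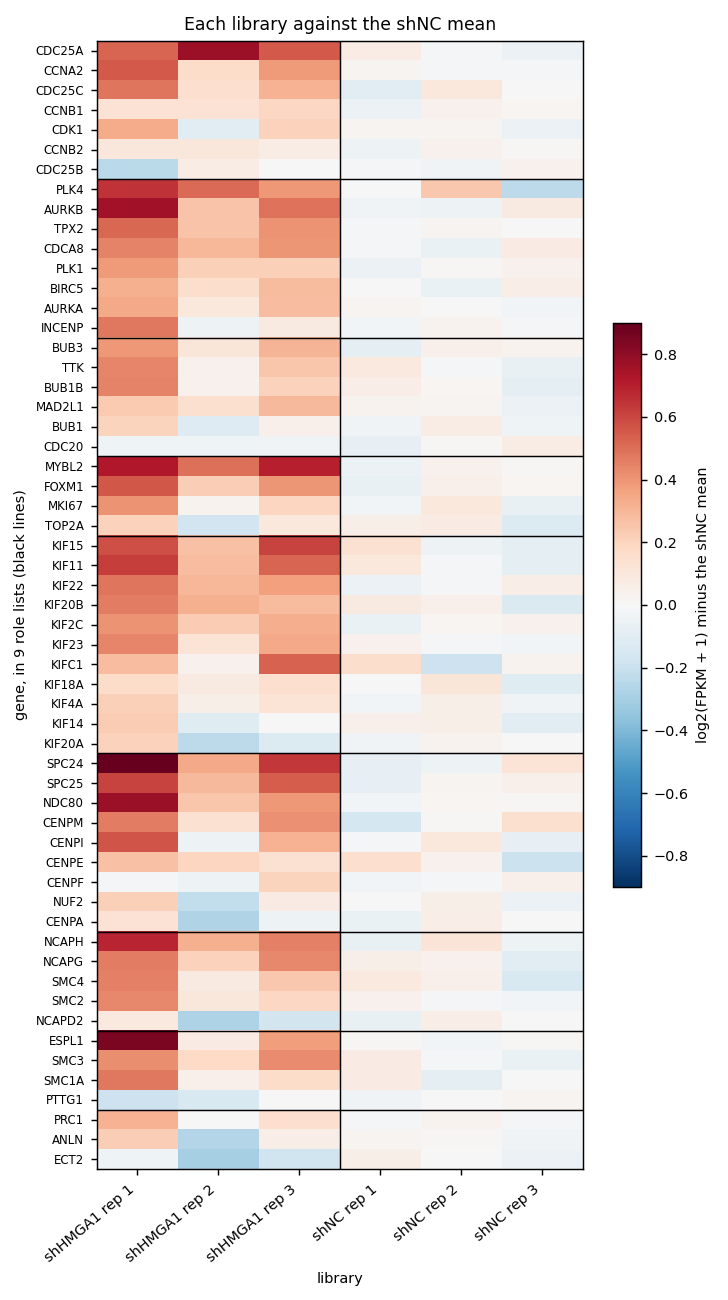
Each library's log2(FPKM + 1) minus the shNC mean (colour scale) for the 57 genes, in 9 role lists separated by black lines, with shHMGA1 libraries on the left and shNC libraries on the right. The column of shHMGA1 replicate 1 is the darkest red (median 0.42) and that of replicate 2 the palest of the 3 (median 0.10).

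Among cyclins, CDK1 and its CDC25 phosphatases, 4 of 7 rose (57.1%, against 16.1% of all genes), with a median log2 fold change of 0.15. CDC25A (chromosome 3, 48157146 to 48188402), the phosphatase that also acts at S phase entry, stood at 8.06, 7.54 and 7.34 FPKM in shNC and at 11.4, 13.8 and 11.7 in shHMGA1. All knockdown libraries were above all controls, and replicate 2 was here the highest. The mean rose from 7.65 ± 0.372 to 12.3 ± 1.28 FPKM (SD, n = 3 each; 0.62 on the log2 scale, SE 0.08, adjusted p = 0.00327). Cyclin A2 (CCNA2), the partner of CDKs from S phase into mitosis, went from 43.3, 42.2 and 42.1 to 62.7, 47.9 and 55.8 FPKM (0.37 on the log2 scale, SE 0.09, adjusted p = 0.0255). CDC25C, which activates CDK1 at mitotic entry, had 19.7, 22.6 and 21.2 FPKM in shNC and 29.9, 23.6 and 26.4 in shHMGA1 (0.32, SE 0.09, adjusted p = 0.0427). The groups did not overlap in either gene, though replicate 2 of the knockdown lay close to the controls.

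Cyclin B1 (CCNB1) rose by 0.15 (SE 0.04, adjusted p = 0.0446), a call that no fit with a library left out kept (adjusted p from 0.0519 to 0.144). Cyclin B2 (CCNB2) had a log2 fold change of 0.09 (adjusted p = 0.161) and CDK1 itself one of 0.15 (adjusted p = 0.335), and neither passed. CDC25B, the phosphatase of early mitotic entry, stood at 85.2, 83.9 and 88.1 FPKM in shNC and at 72.4, 89.8 and 85.4 in shHMGA1, with overlapping groups (log2 fold change -0.06, adjusted p = 0.607). Of these 4 calls, 1 was left when any shNC library or shHMGA1 replicate 3 was dropped, and 2 when shHMGA1 replicate 1 or the mitochondrially encoded genes were. An exon of CCNA2 overlaps EXOSC9 and one of CDC25C overlaps FAM53C, both on the opposite strand, so their reads may not be separable.

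Of 8 genes of mitotic kinases, TPX2 and the chromosomal passenger complex, 7 rose (87.5%, against 16.1% of all genes), with a median of 0.33. The passenger complex carries Aurora B to centromeres. Its subunit borealin (CDCA8) stood at 36.7, 35.4 and 39.1 FPKM in shNC and at 50.9, 45.8 and 49.1 in shHMGA1. The groups were well apart, at means of 37.1 ± 1.85 and 48.6 ± 2.60 (0.38 on the log2 scale, SE 0.06, adjusted p = 0.00551). Its kinase AURKB rose by 0.50 (SE 0.12, adjusted p = 0.0205), from 92.3 ± 4.61 to 132 ± 23.1 FPKM, and survivin (BIRC5) by 0.25 (adjusted p = 0.0182). INCENP, the scaffold of the same complex, had 30.3, 31.6 and 30.5 FPKM in shNC and 43.1, 29.8 and 32.6 in shHMGA1. Its groups overlapped, with replicate 2 of the knockdown below the controls and replicates 1 and 3 above them (log2 fold change 0.17, adjusted p = 0.342).

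TPX2 and the kinases PLK1, PLK4 and AURKA showed the same direction. TPX2, which activates Aurora A on the spindle, stood at 114, 117 and 115 FPKM in shNC and at 165, 138 and 153 in shHMGA1 (0.39 on the log2 scale, SE 0.07, adjusted p = 0.00715). PLK1, the polo-like kinase of mitotic entry and spindle assembly, went from 91.7, 96.0 and 97.9 to 124, 111 and 110 FPKM (0.27, SE 0.06, adjusted p = 0.0172). In both genes every knockdown library was above every control. PLK4, which starts centriole duplication, rose by 0.52 (SE 0.13, adjusted p = 0.0235) and AURKA by 0.24 (SE 0.07, adjusted p = 0.041). Of these 7 calls, 2 were left when shNC replicate 1 was dropped, 3 when shNC replicate 2 was and 4 when shHMGA1 replicate 3 was.

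Among the spindle checkpoint genes 2 of 6 rose (33.3%, against 16.1% of all genes), with a median of 0.23. MAD2L1, the inhibitor of CDC20, stood at 90.0, 89.7 and 84.7 FPKM in shNC and at 104, 97.5 and 108 in shHMGA1 (0.22 on the log2 scale, SE 0.05, adjusted p = 0.0222). BUB3, a scaffold of the checkpoint, went from 216, 236 and 232 to 299, 245 and 282 FPKM (0.27, SE 0.08, adjusted p = 0.0417). In both the groups were separate, by a narrow margin for replicate 2 of the knockdown. The kinase TTK, at the top of the checkpoint, had 31.0, 28.7 and 27.7 FPKM in shNC and 39.9, 29.9 and 34.9 in shHMGA1, and its groups overlapped (0.24, adjusted p = 0.122). BUB1B had a log2 fold change of 0.23 (adjusted p = 0.133) and BUB1 one of 0.04 (adjusted p = 0.72).

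CDC20, the activator of the anaphase-promoting complex that the checkpoint restrains, was nearly level. It stood at 215, 227 and 236 FPKM in shNC and at 220.5, 219.8 and 221 in shHMGA1, so the knockdown libraries lay inside the control range (-0.04 on the log2 scale, SE 0.05, adjusted p = 0.598). Of the 2 calls among checkpoint genes, 0 were left when any shNC library, shHMGA1 replicate 3 or the mitochondrially encoded genes were dropped, and 1 when shHMGA1 replicate 1 was. With shHMGA1 replicate 2 dropped, 4 checkpoint genes were called. BUB1B shares exons with the readthrough gene BUB1B-PAK6.

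Of the transcription factors and chromosome proteins, 2 of 4 rose (50%, against 16.1% of all genes). MYBL2 (chromosome 20, 43667019 to 43716496), the B-Myb factor that works with MuvB at late cell cycle promoters, had the highest log2 fold change of FPKM + 1 of the 57 genes. That rank was not stable. With 0.1 in place of 1 added to FPKM, CDC25A had 0.67 and MYBL2 0.65. In the authors' deposited table CDC25A (0.68) and SPC24 (0.66) lay above MYBL2 (0.65). MYBL2 stood at 35.1, 37.6 and 36.9 FPKM in shNC and at 60.9, 52.0 and 60.0 in shHMGA1, all far above the controls. The mean rose from 36.5 ± 1.3 to 57.6 ± 4.9 FPKM (0.64 on the log2 scale, SE 0.07, adjusted p = 0.0017), and it stayed between 0.60 and 0.71 with any library left out. FOXM1, the forkhead factor of G2 and mitosis genes, went from 48.5, 52.4 and 51.4 to 75.2, 59.4 and 67.2 FPKM (0.39, SE 0.09, adjusted p = 0.0159). Its call was lost when shNC replicate 1 or shHMGA1 replicate 3 was dropped (adjusted p up to 0.0602), and an exon overlaps ITFG2 on the opposite strand.

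The proliferation marker MKI67, which coats mitotic chromosomes, stood at 69.9, 76.1 and 68.1 FPKM in shNC and at 94.6, 73.1 and 81.5 in shHMGA1. Replicate 2 of the knockdown lay among the controls, and the difference did not pass (0.21, SE 0.10, adjusted p = 0.144). The topoisomerase TOP2A, which untangles sister chromatids, had 74.7, 76.0 and 66.1 FPKM in shNC and 83.3, 63.9 and 76.9 in shHMGA1. Replicates 1 and 3 of the knockdown lay above all controls and replicate 2 below all of them (0.04, SE 0.10, adjusted p = 0.789), and the sign turned with quantile normalization (-0.011).

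**Figure D4:**
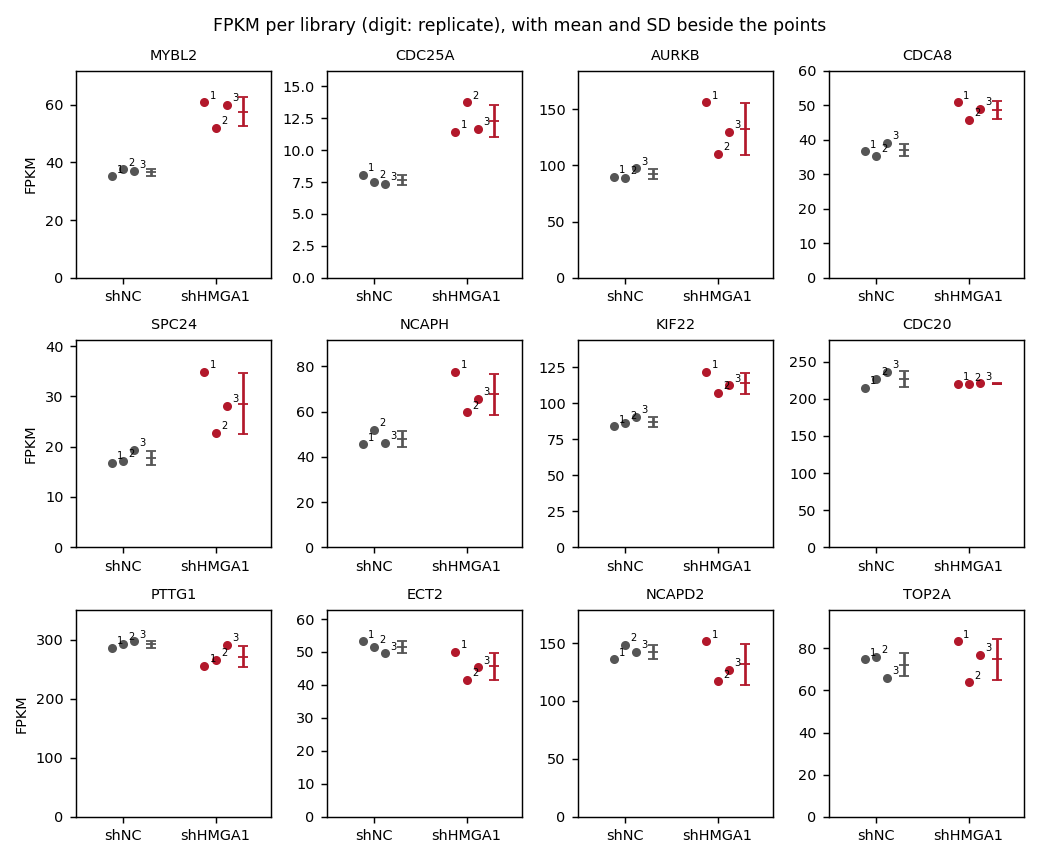
FPKM per library for 12 of the genes (vertical axes from 0; grey points shNC, red points shHMGA1, digits the replicate number), with the mean and SD beside each group. MYBL2, CDC25A, AURKB, CDCA8, SPC24, NCAPH and KIF22 have all shHMGA1 points above all shNC points, while CDC20, PTTG1, ECT2, NCAPD2 and TOP2A overlap.

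Of 11 kinesins 6 rose (54.5%, against 16.1% of all genes), with a median of 0.30. KIF22, the chromokinesin that pushes chromosome arms toward the spindle equator, stood at 83.8, 86.2 and 90.5 FPKM in shNC and at 122, 107 and 112 in shHMGA1. The knockdown libraries were all above the controls (0.38 on the log2 scale, SE 0.06, adjusted p = 0.00516). KIF2C, a microtubule depolymerase at centromeres, went from 65.6, 69.2 and 70.3 to 90.7, 80.4 and 86.1 FPKM (0.32, SE 0.06, adjusted p = 0.00871). The bipolar spindle motor KIF11 went from 20.3, 18.7 and 17.8 to 29.6, 23.2 and 27.7 FPKM (0.47, SE 0.10, adjusted p = 0.0125). KIF15, which can share the work of KIF11, had a log2 fold change of 0.48 (adjusted p = 0.0187), and the cytokinesis motors KIF20B and KIF23 had 0.36 (adjusted p = 0.018) and 0.30 (adjusted p = 0.0318).

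The other 5 kinesins did not pass. KIFC1, which focuses spindle poles, had a log2 fold change of 0.28 (adjusted p = 0.17), KIF18A and KIF4A had 0.13 each, and KIF14 had 0.04. KIF20A, a motor of the central spindle, stood at 57.4, 60.0 and 58.7 FPKM in shNC and at 67.9, 49.6 and 53.9 in shHMGA1. One knockdown library was above all controls and the other two below all of them (-0.05, SE 0.11, adjusted p = 0.758), and without shHMGA1 replicate 1 the difference was -0.18 (adjusted p = 0.0493). Of these 6 calls, 4 were left when shNC replicate 2, shNC replicate 3 or shHMGA1 replicate 3 was dropped. Exons of KIF20A overlap BRD8 and CDC23 on the opposite strand, and AC009133.4 overlaps KIF22 in the same way.

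Of 9 centromere and kinetochore genes 3 rose (33.3%, against 16.1% of all genes), with a median of 0.27. The 3 that limma called all encode subunits of the NDC80 complex. SPC25 stood at 29.7, 31.8 and 32.4 FPKM in shNC and at 48.3, 38.5 and 46.1 in shHMGA1 (0.48 on the log2 scale, SE 0.09, adjusted p = 0.00877). Its partner SPC24 (chromosome 19, 11131520 to 11155808) went from 16.8, 17.2 and 19.4 to 34.9, 22.7 and 28.2 FPKM (0.64, SE 0.14, adjusted p = 0.0178). NDC80, the microtubule-binding subunit, went from 26.3, 27.1 and 26.9 to 46.6, 32.0 and 35.4 FPKM (0.47, SE 0.13, adjusted p = 0.0309). In these 3 genes every knockdown library was above every control, with replicate 1 the highest. NUF2, the remaining subunit, had a mean of 31.9 ± 1.17 FPKM in the controls against 32.7 ± 4.99 in the knockdown (0.02, adjusted p = 0.888). Differences between subunits were not tested. The sign of NUF2 turned with quantile normalization (-0.012), median-of-ratios scaling (-0.0016) and without mitochondrially encoded genes (-0.0014).

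CENPA, the histone H3 variant that marks centromeres, stood at 28.0, 30.5 and 29.2 FPKM in shNC and at 32.1, 24.0 and 28.3 in shHMGA1. Its groups overlapped (-0.06 on the log2 scale, SE 0.10, adjusted p = 0.672), and its exons overlap SLC35F6 on the same strand. CENPM and CENPI of the inner kinetochore had log2 fold changes of 0.34 (adjusted p = 0.0575) and 0.27 (adjusted p = 0.204), the kinesin-like CENPE one of 0.20 (adjusted p = 0.168) and CENPF one of 0.04 (adjusted p = 0.674). In the authors' deposited table CENPM (0.34, adjusted p = 0.0213), CENPI (0.32, adjusted p = 0.0393) and CENPE (0.22, adjusted p = 0.0352) were also higher. CENPA, CENPF and NUF2 were not called there. Of the 3 limma calls, 1 was left when shNC replicate 1, shNC replicate 2 or shHMGA1 replicate 3 was dropped, and 5 genes were called when shHMGA1 replicate 2 was.

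In condensin, the ring that compacts mitotic chromosomes, 2 of 5 subunits rose (40%, against 16.1% of all genes). NCAPH, its kleisin, stood at 45.6, 51.8 and 46.2 FPKM in shNC and at 77.6, 59.8 and 65.7 in shHMGA1 (0.49 on the log2 scale, SE 0.10, adjusted p = 0.0133). NCAPG, a HEAT-repeat subunit, went from 43.7, 43.2 and 39.4 to 58.2, 48.7 and 57.01 FPKM (0.37, SE 0.08, adjusted p = 0.0163). Both had all knockdown libraries above the controls. The ATPase SMC2 went from 9.81, 9.37 and 9.33 to 13.2, 10.3 and 11.0 FPKM, also with separate groups, but did not pass (0.24, SE 0.09, adjusted p = 0.091), and its partner SMC4 had 0.26 (adjusted p = 0.1).

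NCAPD2, the other HEAT-repeat subunit of the same condensin, was not higher. It stood at 136, 148 and 143 FPKM in shNC and at 152, 117 and 127 in shHMGA1 (-0.12 on the log2 scale, SE 0.09, adjusted p = 0.379). With shHMGA1 replicate 1 dropped it was called lower (-0.22, adjusted p = 0.0342). An exon of NCAPD2 overlaps MRPL51 and one of NCAPG overlaps LCORL, both on the opposite strand. Of the 2 calls, 1 was left when shNC replicate 1, shNC replicate 3 or shHMGA1 replicate 3 was dropped.

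Among cohesin and the proteins that release it, limma called 1 of 4 higher (25%, near the 16.1% of all genes tested). SMC3, an ATPase of the cohesin ring, stood at 25.6, 24.0 and 23.2 FPKM in shNC and at 32.6, 27.6 and 32.8 in shHMGA1 (0.34 on the log2 scale, SE 0.08, adjusted p = 0.0199). The call was lost when shNC replicate 2, shNC replicate 3 or shHMGA1 replicate 3 was dropped (adjusted p up to 0.0716). Its partner SMC1A went from 47.8, 42.7 and 45.5 to 63.5, 46.8 and 50.97 FPKM, with overlapping groups (0.23, SE 0.11, adjusted p = 0.157). Separase (ESPL1), the protease that cuts cohesin, had 23.5, 22.9 and 23.5 FPKM in shNC and 42.8, 24.6 and 30.6 in shHMGA1. Its groups did not overlap, but the spread in the knockdown was wide and the difference did not pass (0.43, SE 0.17, adjusted p = 0.103). In the authors' deposited table, SMC3, SMC1A and ESPL1 were called higher (adjusted p = 3.37e-05, 9.87e-05 and 0.0475). PTTG1, given next, was not called there (adjusted p = 0.0582). That source calls 17.5% of all genes with an adjusted p higher.

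Securin (PTTG1), which holds separase inactive, had the highest level of the 57 genes in shNC. It stood at 286, 293 and 297 FPKM there and at 256, 266 and 292 in shHMGA1 (-0.11 on the log2 scale, SE 0.06, adjusted p = 0.19), so that only replicate 3 of the knockdown reached the control range.

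None of the 3 cytokinesis genes was called, at unadjusted p of 0.0484 for ECT2, 0.0822 for PRC1 and 0.963 for ANLN by limma. PRC1, which bundles the central spindle, stood at 93.6, 96.8 and 93.8 FPKM in shNC and at 118, 95.2 and 105 in shHMGA1 (0.16 on the log2 scale, SE 0.08, adjusted p = 0.171). Its exons overlap PRC1-AS1 and AC068831.7. In the authors' deposited table PRC1 was higher (0.19, adjusted p = 0.0126). Anillin (ANLN), which organizes the contractile ring, had 58.0, 57.2 and 55.5 FPKM in shNC and 66.3, 47.3 and 59.3 in shHMGA1, a span wider than the controls in both directions (0.01, SE 0.11, adjusted p = 0.977). Its sign turned with quantile normalization (-0.057), median-of-ratios scaling (-0.020) and without mitochondrially encoded genes (-0.020).

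ECT2, the exchange factor that activates RhoA for furrowing, had the lowest log2 fold change of the 57 genes. It stood at 53.3, 51.5 and 49.6 FPKM in shNC and at 49.98, 41.6 and 45.3 in shHMGA1 (-0.17, SE 0.07, adjusted p = 0.117). Replicate 1 of the knockdown lay within the control range and the other two below it. Without replicate 1 it was called lower (-0.24, adjusted p = 0.0273).

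The authors' deposited table, a separate comparison of the same libraries, gave 38 of the 57 genes as higher and 0 as lower at an adjusted p under 0.05, where it calls 17.5% of all genes with an adjusted p higher and 16.7% lower. Of these 38, 26 were also called by limma. The other 12 in the authors' deposited table included SMC1A (log2 fold change 0.37), ESPL1 (0.47) and MKI67 (0.22). MAD2L1, called by limma, was not called in the authors' deposited table (0.13, adjusted p = 0.0852). The sign differed between the authors' deposited table and limma for CENPF, NUF2 and ANLN, and none of these was called in either.

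**Figure D5:**
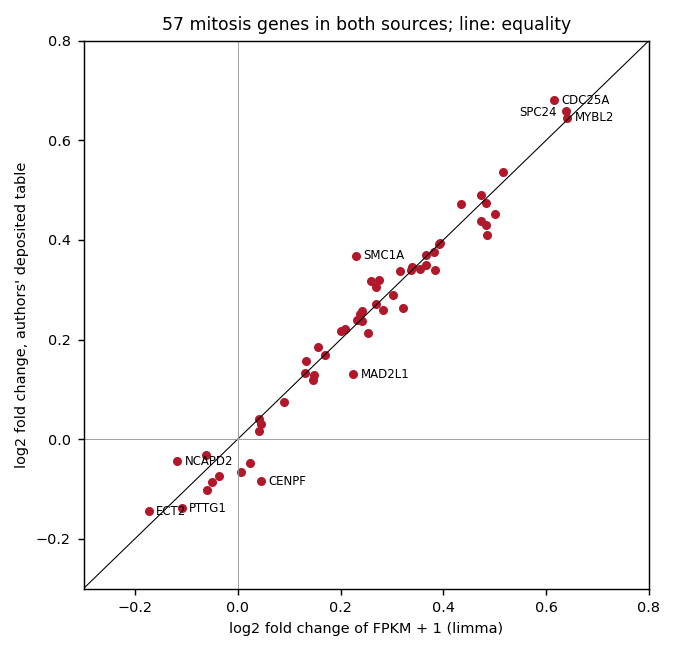
Log2 fold change in the authors' deposited table (vertical axis) against that of FPKM + 1 by limma (horizontal axis) for the 57 genes, with a line of equality. Most points lie near the line, SMC1A lies above it (0.37 against 0.23) and MAD2L1 below it (0.13 against 0.22).

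Promoter letters and the change in RNA can be set side by side for the 50 genes with a promoter, of which 22 were called higher. No promoter was matched for TPX2, AURKA, BIRC5, BUB3 and FOXM1, which were called higher, or for TTK and CENPM, which were not called. Of the 35 with a CHR match 13 were called higher (37.1%), at a median log2 fold change of 0.22, and of the 15 without one 9 were called (60.0%), at a median of 0.32. With a CCAAT match 14 of 33 were called (42.4%), and without one 8 of 17 (47.1%). With an E2F-type match 7 of 15 were called (46.7%), and without one 15 of 35 (42.9%). Over all genes tested, 16.1% were called higher. These are counts of letters in short windows, and the differences were not tested. Only the letters TTTGAA and TTCGAA in the first listed promoter counted as a CHR match. A gene without a match may therefore still have a CHR in another form or at another promoter. MYBL2 and CDC25A, with the highest and the third highest log2 fold change, had no CHR match, nor did SPC24, the second.

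Other genes of the same machinery, 94 in 6 lists, were counted beside these: 35 rose (37.2%, against 16.1% of all genes tested), 1 fell (against 12.3%) and 58 were not called, with a median of 0.17 against 0.02. Among 9 genes of mitotic entry control 7 rose (77.8%), with the CDK1-inhibiting kinase PKMYT1 from 34.7 to 53.7 FPKM (log2 fold change 0.61, adjusted p = 0.0013) and cyclin F (CCNF) from 22.0 to 31.3 (0.49, adjusted p = 0.00245). Of 27 other kinetochore and centromere genes 13 rose (48.1%), with CENPO from 12.8 to 18.4 FPKM (0.49) and PMF1 from 30.7 to 44.3 (0.52). Both belong to complexes of the kinetochore.

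Of 14 other genes of condensin, cohesin and their loaders 3 rose, a share of 21.4% that is near the 16.1% of all genes tested. Sororin (CDCA5), which protects cohesin, went from 35.5 to 58.6 FPKM (0.70, adjusted p = 0.00147), and NCAPH2, the kleisin of the second condensin, from 40.4 to 57.5 (0.50, adjusted p = 0.00183). Of 17 subunits and activators of the anaphase-promoting complex 4 rose (23.5%, against 16.1%) and 1 fell (against 12.3%), with ANAPC7 at 0.46 (adjusted p = 0.00366) and ANAPC2 at 0.37 (adjusted p = 0.00629). The one that fell was UBE2S, an E2 enzyme that extends ubiquitin chains (-0.27, adjusted p = 0.0083, named after its value was seen). Of 17 other spindle and cytokinesis genes 5 rose (29.4%, against 16.1%). Among them were NUMA1 (0.26, adjusted p = 0.00693) and GTSE1 (0.33, adjusted p = 0.0101). Of 10 DREAM and MuvB genes 3 rose (30%, against 16.1%). The pocket protein RBL1 went from 4.61 to 7.43 FPKM (0.58, adjusted p = 0.00321) and E2F4 from 52.9 to 65.1 (0.29, adjusted p = 0.0138). Of these 94 genes 16 were called higher when shNC replicate 1 was dropped, 17 when shHMGA1 replicate 3 was and 22 when shNC replicate 2 or 3 was. In the same fits 1138, 1173, 1279 and 1579 of all genes were called higher.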

How the data were processed

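Poly-A RNA of 6 libraries labelled HT29 was purified with poly-T beads and sequenced on an MGI instrument, per the labels' protocols. Sample titles gave each library its group and replicate number. The submitters' processing notes name hg38 as the build. Aligner, counting tool, strand setting and annotation are not stated in what was used here. The deposited table holds FPKM per library, made by the authors, with 2 decimals, per the file headers. Per the file headers, it also holds the authors' own comparison (log2 fold change, p-value, adjusted p) and the authors' group level, a normalized signal that was not used. FPKM keeps no depth in its total. Relative depth was estimated from 92 to 120 genes seen in at most 3 libraries, and precision is lowest at low FPKM.

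Two-sided limma tests (3.58.1, R 4.3.3, eBayes with a trend) compared the group means of log2(FPKM + 1), with Benjamini-Hochberg adjustment. The pseudocount makes fold changes of low genes too small. The step was tested on simulated data. HMGA1 was also tested by exact permutation with scipy 1.17.1. Coordinates and exon overlaps are those of GENCODE 29. In 22 of the 57 genes an exon overlaps another gene, in 3 of them on the same strand. The alternatives were pseudocounts of 0.1 and 5, a filter at a mean of 5 FPKM or none, median-of-ratios scaling, quantile normalization, rescaling to equal totals (TPM), removal of mitochondrially encoded genes, the replicate block and leaving out each library. Every gene of the group is named, and values by library are given for the 3 with the smallest unadjusted p and the one with the lowest fold change in each role list; of the other lists the 2 with the smallest unadjusted p are named. The genes, lists and alternatives were chosen with earlier results of these data known. Marker genes that the table does not list were not analysed here.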

Additional observations from a re-analysis of the deposited data

How the results depend on the processing

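The count of 27 genes that rose was 15 with no filter on low values (1478 of all genes higher). With the other alternatives apart from leaving out a library it was between 20 and 28 (1913 to 2357 of all genes higher). The count that fell was 0 in all of these. With a library left out, from 12 to 34 rose and from 0 to 3 fell, and over all genes from 1138 to 2626 were higher and from 952 to 1973 lower. HMGA1 was lower and called in each alternative run. CCNB1, CDC25C, AURKA and BUB3 were not called with quantile or median-of-ratios scaling, without mitochondrially encoded genes or with the replicate block. The replicate block left 22 calls. MAD2L1 also lost its call with the replicate block, with quantile normalization and without mitochondrially encoded genes. KIF23 lost it with quantile normalization and without mitochondrially encoded genes, and CCNA2 with quantile normalization. Same-numbered libraries did not deviate together (correlations of 0.0202, -0.0364 and 0.041), so the numbers were not taken to pair samples. Signs turned only in genes that were not called. With quantile normalization these were BUB1 (-0.020), TOP2A (-0.011), CENPF (-0.013), NUF2 (-0.012) and ANLN (-0.057). With median-of-ratios scaling, NUF2 had -0.0016 and ANLN -0.020, and without mitochondrially encoded genes -0.0014 and -0.020. With a library left out, log2 fold changes ran from -0.12 to 0.030 for CDC25B, -0.034 to 0.13 for BUB1, -0.040 to 0.15 for TOP2A, -0.054 to 0.12 for KIF14, -0.18 to 0.044 for KIF20A, -0.16 to 0.042 for CENPA, -0.033 to 0.091 for CENPF, -0.071 to 0.14 for NUF2 and -0.10 to 0.14 for ANLN. The cause of these moves was not tested.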
